A study of Homo sapiens with 16 samples.

Results

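The genes described here are 43 members of the type I interferon response, chosen by gene symbol from the 23459 genes of the deposited expression table, in which all 43 were found. They were measured by RNA-seq in 16 libraries of human multiple myeloma cells, a cancer of plasma cells. The cells were the established lines MM.1s, RPMI8226 and KMS18, and RPMI8226 that overexpressed Mcl1, an anti-apoptotic relative of BCL2 (called the Mcl1 line here). Cells of each of these 4 backgrounds carried either the empty pLK0.1 vector (Vec) or an shRNA, a hairpin that directs the cell to degrade a chosen transcript, aimed at Gapdh, at CD28 or at CD86. Every combination was sequenced as 1 library. CD28 is a co-stimulatory receptor known from T cells and CD86 is one of its ligands, and the study's title places CD86 in a survival signal of myeloma cells. Vec and Gapdh shRNA were the controls. No library of cells treated with interferon was analysed here. The sources used here do not say how many hairpins were used or what their sequences were, and nothing in the labels says that libraries of a line came from separate cultures. The p-values measure the spread between libraries that is left after differences between backgrounds and between shRNAs are taken out, which may be technical. For comparisons between lines this is not a spread between separate derivations of a line. The Mcl1 line is a derivative of RPMI8226 and was not used as a further replicate of it.

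Type I interferons are secreted proteins that bind a receptor made of IFNAR1 and IFNAR2. The receptor's kinases TYK2 and JAK1 phosphorylate transcription factors, among them STAT2, which works with IRF9 in the complex ISGF3, and ISGF3 binds the interferon-stimulated response element (ISRE) in the promoters of many antiviral genes. The products of these genes detect foreign nucleic acid, block viral entry, translation and budding, or feed back on the pathway, and many are also expressed at a basal level without added interferon.

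Each library held between 3914513 and 5900955 reads in genes, and the CD28 shRNA library was the shallowest of the 4 in every background. Whether the mates of a pair were counted separately is not stated, and 76.1% of all values from 1 to 20 reads were even, so the numbers of reads given here may exceed those of fragments. Values are FPKM, that is, fragments normalised for exon length and library depth, so that levels can be compared between genes as well as between libraries. CD28 stood at 65.1% to 79.3% of its Vec level in the 4 CD28 shRNA libraries, CD86 at 44.1% to 76.3% in the 4 CD86 shRNA libraries and GAPDH at 10.7% to 53.0% in the 4 Gapdh shRNA libraries. All 7 plasma cell markers examined (SDC1, IRF4, PRDM1, XBP1, MZB1, TNFRSF17 and CD38) were above 0 in every library, with a summed level of 630.5 to 1736 FPKM. Markers of T cells, myeloid cells, plasmacytoid dendritic cells and stromal cells summed to at most 7.37, 3.54, 1.55 and 0.841 FPKM.

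Promoters of the members were searched for the ISRE core, written GAAANNGAAA, or TTTCNNTTTC on the other strand, because it is the element through which interferon acts on such genes. RefSeq promoter sequences (build GRCh38.p14, from 250 bases before to 50 after the start site) were matched for 35 of the 43 members. The core was found in 20 of the 35 (57.1%), against 996 of all 27305 promoters (3.65%), and 14 of the 35 held it at least 2 times, against 0.271% of all promoters. Windows of 30 bases around the core are shown for the members whose values carry the results below, 5′ to 3′ on the strand of the gene, with the core in capitals. Cores that overlap, as in BST2, were counted separately.
IFIT3 at chr10:89327831-89327860, plus strand: agccgttaggTTTCATTTTCctcctcccaa
IFIT3 at chr10:89327865-89327894, plus strand: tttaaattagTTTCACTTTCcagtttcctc
IFIT1 at chr10:89392497-89392526, plus strand: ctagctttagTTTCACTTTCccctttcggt
IFIT1 at chr10:89392510-89392539, plus strand: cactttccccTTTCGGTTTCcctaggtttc
IFI6 at chr1:27672329-27672358, minus strand: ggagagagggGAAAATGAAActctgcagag
IFI6 at chr1:27672288-27672317, minus strand: ggagagagggGAAAATGAAActgcagagtg
IFI6 at chr1:27672266-27672295, minus strand: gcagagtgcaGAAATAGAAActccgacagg
BST2 at chr19:17405741-17405770, minus strand: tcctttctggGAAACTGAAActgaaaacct
BST2 at chr19:17405735-17405764, minus strand: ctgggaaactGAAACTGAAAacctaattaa
MX1 at chr21:41420559-41420588, plus strand: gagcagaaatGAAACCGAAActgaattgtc
ISG15 at chr1:1013374-1013403, plus strand: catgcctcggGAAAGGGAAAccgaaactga
ISG15 at chr1:1013380-1013409, plus strand: tcgggaaaggGAAACCGAAActgaagccaa

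The core was also found in DDX60, EIF2AK2, HERC5, IFI27, IFI44, IFI44L, IFIH1, IFIT5, IFITM1, IFITM3, ISG20, OAS3, PARP14 and SAMD9. It was not found in CMPK2, DDX58, HERC6, IFI16, IFI35, IRF1, IRF9, OAS1, PARP9, RSAD2, SAMD9L, SP110, STAT2, UBE2L6 and XAF1, and a missing match says only that these letters are not in this window. IFIT2, IFITM2, IRF7, MX2, OAS2, OASL, TRIM22 and USP18 were not searched.

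In the Vec libraries the basal level of the members ranged from 499 FPKM to no read. BST2, also called tetherin, a membrane protein that holds budding viruses at the cell surface, had the highest mean over the 4 Vec libraries. Its level was 273 FPKM for MM.1s, 329 for RPMI8226, 499 for KMS18 and 271 for the Mcl1 line. IFI16, a sensor of DNA in the nucleus and cytosol, followed with 61.8 FPKM for MM.1s, 95.2 for RPMI8226, 37.2 for KMS18 and 89.8 for the Mcl1 line. Next were UBE2L6, the enzyme that passes the ubiquitin-like protein ISG15 to its ligases, with a mean of 40.1 FPKM over these libraries, and IFI6, a small membrane protein with anti-apoptotic and antiviral activity, with a mean of 27.4 FPKM. UBE2L6 ranged from 31.6 in MM.1s to 51 in RPMI8226. Of these 4 genes IFI6 had the widest range: it was 3.67 FPKM for MM.1s, 76 for RPMI8226, 0.704 for KMS18 and 29.3 for the Mcl1 line.

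IRF9, the DNA-binding subunit of ISGF3, was listed at 0 in all 16 libraries. Why was not settled, and a gene missed by the counting cannot be told apart from a gene without transcript. The other lowest members were DDX60, a helicase that assists RNA sensing, with a mean of 0.015 FPKM over the 4 Vec libraries, CMPK2, a nucleotide kinase, with 0.0164, and RSAD2 (viperin), an enzyme that makes a chain-terminating nucleotide, with 0.0199. These 3 and IRF9 were the only members that stayed below 1 FPKM in every library. CMPK2 and RSAD2 lie next to each other in the genome and had at most 4 and 6 reads in any library. Altogether 13 members had a mean below 1 FPKM over the 16 libraries. KMS18 had the largest number of members at 0, with 13 of 43 in its Vec library (IRF9 included), against 8 for MM.1s, 3 for RPMI8226 and 4 for the Mcl1 line. IFIT1, IFIT2, HERC6, TRIM22, IFI27, IFI44L and RSAD2 were at 0 in all 4 KMS18 libraries.

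**Figure D1:**
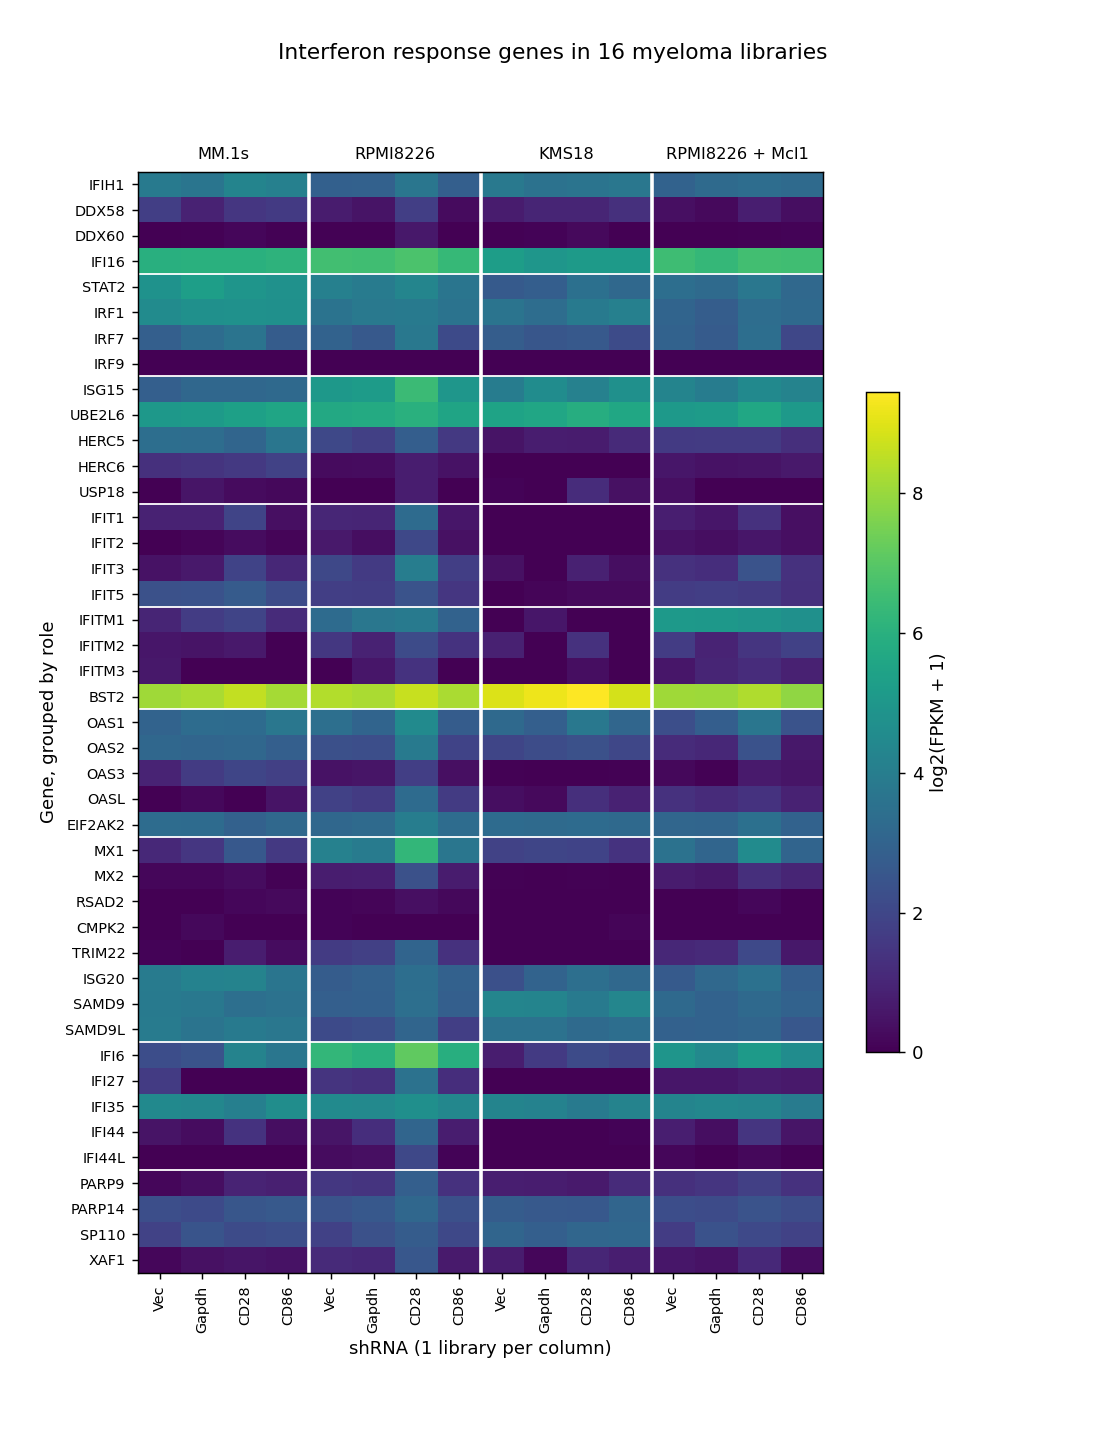
Level of each of the 43 genes (rows, grouped by role) in each of the 16 libraries (columns, grouped by background), as log2(FPKM + 1) on a colour scale. BST2 is the brightest row in every library, IRF9 is at 0 throughout, and the CD28 shRNA column of RPMI8226 is brighter than its neighbours for most genes.

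The lines were compared with limma on log2(FPKM + 1) in the 12 libraries of the 3 parental lines, with a term for the shRNA, and a gene was called at an adjusted p under 0.05 (Benjamini-Hochberg over all genes tested). Of the 43 members, 30 passed the filter of a mean of at least 1 FPKM over the 12 libraries. The 13 that did not were DDX60, IRF9, HERC6, USP18, IFIT2, IFITM2, IFITM3, OAS3, MX2, RSAD2, CMPK2, IFI44L and XAF1. The 4 libraries of a line carried different shRNAs and served as its replicates. Most genes of the table differed between these lines, and the shares of members called (19, 16 and 21 of 30) were not above those of all genes. IFI27, IFI44, IFIT1, IFIT3, IFITM1, OASL, PARP9 and TRIM22 had a mean below 1 FPKM over the other 8 libraries, so they passed the filter only through RPMI8226 and the filter itself favours higher values there.

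RPMI8226 stood out for genes that were low in the other parental lines. IFI6 averaged 84.7 ± 37.5 FPKM (SD, n = 4 libraries) in RPMI8226, 9.39 ± 6.63 in MM.1s and 2.29 ± 1.22 in KMS18. MX1, a GTPase that traps viral nucleoproteins, averaged 29.4 ± 30.4 FPKM in RPMI8226, 2.47 ± 1.72 in MM.1s and 2.49 ± 0.58 in KMS18. The SD of MX1 in RPMI8226 exceeded its mean because of the CD28 shRNA library, and the ranges of the lines did not overlap: the lowest RPMI8226 library, at 12 FPKM, was above the highest library of MM.1s (5) and of KMS18 (2.94). IFITM1, a membrane protein that blocks viral fusion, was 8.95 with Vec, 12.5 with Gapdh shRNA, 13.4 with CD28 shRNA and 6.9 with CD86 shRNA in RPMI8226. In MM.1s the IFITM1 levels in the same order were 0.98, 2.18, 2.85 and 1.23, and in KMS18 they were 0, 0.493, 0 and 0. ISG15, a ubiquitin-like protein that is attached to other proteins and also secreted, averaged 45.8 ± 26.3 FPKM in RPMI8226, 20.2 ± 5.2 in KMS18 and 7.66 ± 0.907 in MM.1s.

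In limma, RPMI8226 differed from MM.1s in 19 of 30 members, against 69.1% of all 11316 genes tested. Higher in RPMI8226 were 11 (33.2% of all genes), with the largest log2 differences for IFI6 (3.19 ± 0.26 SE, adjusted p = 9e-07), MX1 (2.82), ISG15 (2.30), IFITM1 (2.04), OASL (1.93), TRIM22 (1.67), IFI27 (1.47) and IFIT3 (1.33). Among these 11, IFITM1, OASL, TRIM22, IFI27, IFIT3 and PARP9 passed the filter only through RPMI8226, so the filter partly sets this count. Lower were 8 (35.9% of all genes): SAMD9L (-1.50), HERC5 (-1.34), ISG20 (-0.999), IRF1 (-0.99), STAT2 (-0.94), IFIH1 (-0.87), SAMD9 (-0.65) and IFIT5 (-0.56). MM.1s thus had the higher transcript level of the transcription factors STAT2 and IRF1, of IFIH1 (MDA5, a sensor of viral RNA) and of HERC5, the main ligase for ISG15. STAT2 averaged 30.2 ± 5.36 FPKM in MM.1s, 15.3 ± 2.88 in RPMI8226 and 7.44 ± 2.11 in KMS18, with no overlap between MM.1s and the other lines. HERC5 averaged 9.67 ± 1.98, 3.4 ± 1.85 and 0.733 ± 0.328 FPKM in the same order.

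KMS18 was lower than each of the other parental lines for most members that differed. Against RPMI8226 it differed in 21 of 30 members, with 70.3% of all genes called. Of these, 16 were lower (35.1% of all genes) and 5 higher (35.2%), and the 16 include the 8 that passed the filter only through RPMI8226. The largest differences were IFI6 (-4.70 ± 0.26 SE, adjusted p = 2.76e-08), IFITM1 (-3.33), MX1 (-2.72), TRIM22 (-1.96), IFIT3 (-1.95), IFI27 (-1.89), IFIT5 (-1.69) and IFIT1 (-1.46). Higher in KMS18 were SAMD9 (1.18), SAMD9L (1.15), SP110 (0.81), BST2 (0.75) and IFIH1 (0.59). SAMD9 and SAMD9L, neighbouring genes for proteins that restrict viral translation, averaged 17.5 ± 2.56 and 9.97 ± 1.08 FPKM in KMS18 and 7.25 ± 1.86 and 4.22 ± 2.18 in RPMI8226. BST2 averaged 562 ± 105 FPKM in KMS18 and 332 ± 46.2 in RPMI8226, so the line with the fewest expressed members had the most BST2 transcript.

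Against MM.1s, KMS18 differed in 16 of 30 members, with 65.3% of all genes called. Lower in KMS18 were 11 (34.5% of all genes), led by HERC5 (-2.62), IFIT5 (-2.24), STAT2 (-1.91), IFI6 (-1.51), IFITM1 (-1.29), IFIT1 (-1.03), ISG20 (-1.01) and IRF1 (-0.96). Higher were 5 (30.8% of all genes), ISG15 (1.27), SP110 (0.88), BST2 (0.85), SAMD9 (0.53) and UBE2L6 (0.38). The median difference over the 30 members was 0.18 for RPMI8226 against MM.1s, -0.38 for KMS18 against MM.1s and -0.71 for KMS18 against RPMI8226, with medians of all genes of -0.03, -0.02 and 0.01. Without the CD28 shRNA libraries, and with the 25 members that then passed the filter, these medians were -0.12, -0.29 and -0.09. The call counts stayed within 1.5 times, at 18, 19 and 15, but the order of RPMI8226 and MM.1s by their median was reversed without those libraries.

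**Figure D2:**
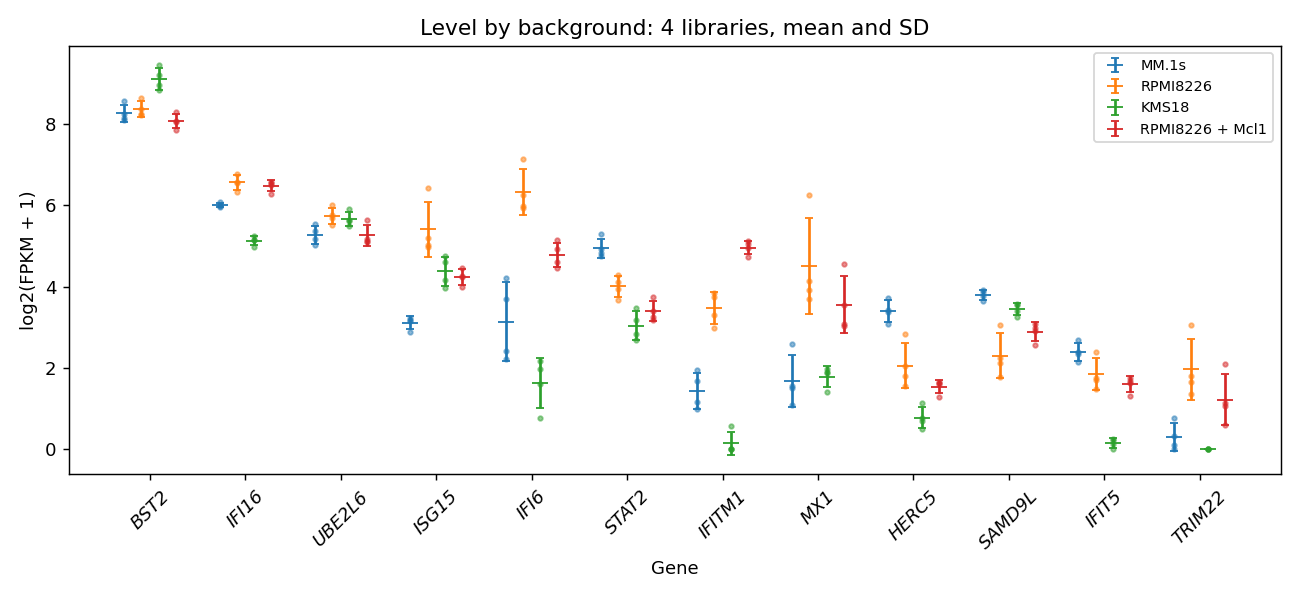
Level of 12 of the genes by background as log2(FPKM + 1), with each of the 4 libraries as a point and the mean and SD as a bar. IFI6, IFITM1 and MX1 are highest in RPMI8226 or its Mcl1 derivative, BST2 is highest in KMS18, and STAT2 and HERC5 are highest in MM.1s.

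The Mcl1 line had lower levels of most members than its parent RPMI8226. In 8 libraries matched by shRNA, limma called 17 of 32 members tested (34.4% of all 11024 genes were called), of which 15 were lower (14.9% of all genes) and 2 higher (19.5%) in the Mcl1 line. IFI27 and XAF1, both among the 15, averaged 0.5535 and 0.5551 FPKM in the Mcl1 line and 3.865 and 1.96 in RPMI8226. They and the uncalled IFIT1, IFI44 and MX2 passed the filter only through RPMI8226. For these genes the filter itself favours lower values in the Mcl1 line. IFI6 was 29.3 with Vec, 21 with Gapdh shRNA, 34.2 with CD28 shRNA and 23.3 with CD86 shRNA in the Mcl1 line and, in the same order, 76, 62.8, 140.0 and 59.9 in RPMI8226. All 4 Mcl1 libraries were below all 4 RPMI8226 libraries for IFI6, and the log2 difference was -1.55 ± 0.11 SE (adjusted p = 8.23e-05). Next were OAS2 (-1.29), IFI27 (-1.25), ISG15 (-1.17), MX1 (-0.94), OASL (-0.90), IFIT3 (-0.78) and XAF1 (-0.76). Without the CD28 shRNA pair IFI27 was -0.72, OASL -0.56 and IFIT3 -0.50, all still called, and XAF1 did not pass the filter. Without the Vec pair IFI27, IFIT3 and XAF1 were no longer called (adjusted p of 0.0649, 0.0673 and 0.0567), without the Gapdh shRNA pair IFI27 and XAF1 (0.0555 and 0.0598), and without the CD86 shRNA pair OASL (0.0549). OAS2 and OASL belong to the oligoadenylate synthetase family, whose active members make the signal that switches on RNase L, and XAF1 is a pro-apoptotic inhibitor of XIAP. IFITM1 went the other way, at 34, 32.1, 29.7 and 25.7 FPKM in the Mcl1 line (order as before), every value above those of RPMI8226 (log2 difference 1.49 ± 0.13 SE, adjusted p = 0.000182). SAMD9L was also higher (0.59). It was no longer called without the Vec, Gapdh shRNA or CD86 shRNA pair (limma adjusted p of 0.0743, 0.071 and 0.0645). Without the CD28 shRNA pair it was still called (0.78). Without the shRNA term 6 members were called. The myeloid marker ITGAM was higher in the Mcl1 line (log2 difference 1.565, adjusted p = 0.0014), at 1.51, 1.19, 3.54 and 2.34 FPKM against 0, 0.0916, 0 and 0 in RPMI8226, in the order Vec, Gapdh, CD28 and CD86 shRNA. The other 3 myeloid markers, LYZ, CD14 and CSF1R, were each at most 0.412 FPKM in either, and the part of this in the result was not tested. The Mcl1 line is a single derivative, so the added Mcl1 and other differences between the derivative and its parent cannot be told apart.

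With CD28 shRNA most members stood above their Vec level in single libraries, most of all in RPMI8226. In RPMI8226 41 of the 43 members were higher in the CD28 shRNA library than in the Vec library, with CMPK2 lower and IRF9 at 0 in both. The corresponding counts were 31 higher and 8 lower in MM.1s, 22 higher and 10 lower in KMS18, and 35 higher and 6 lower in the Mcl1 line. Over all genes whose mean over the 16 libraries reached 1 FPKM, 49.6% were higher with CD28 shRNA than with Vec in RPMI8226. For MM.1s this share was 47.6%, for KMS18 46.5% and for the Mcl1 line 47.4%. The median difference over the 30 members that passed this filter was 0.82 for RPMI8226, 0.28 for MM.1s, 0.12 for KMS18 and 0.33 for the Mcl1 line on the log2(FPKM + 1) scale, with medians of all genes between -0.007 and 0. These are differences between single libraries, without replicates, and whether the response differed between the lines was not tested.

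In RPMI8226 18 of the 43 members were at least 2-fold higher with CD28 shRNA on the FPKM + 1 scale (11 of the 30 that passed the filter, against 0.687% of all genes). They were ISG15, IFIT1, IFIT2, IFIT3, IFITM3, OAS1, OAS2, OAS3, OASL, MX1, MX2, TRIM22, DDX58, IFI27, IFI44, IFI44L, PARP9 and XAF1. DDX58, IFIT1, IFI27 and TRIM22 reached a mean of 1 FPKM over the 16 libraries only through this library, so the filter partly sets the count of 11. In MM.1s 5 members were at least 2-fold higher (4 of the 30, against 1.8% of all genes), namely IFI6, IFIT1, IFIT3, MX1 and OAS3. In KMS18 there were 3 (2 of the 30, against 0.978%), IFI6, ISG20 and USP18, and in the Mcl1 line 4 (4 of the 30, against 0.819%), IFIT3, OAS1, OAS2 and TRIM22. With Gapdh shRNA no member was 2-fold higher than Vec in any background (of all genes, 0.546% were for MM.1s, 0.397% for RPMI8226, 0.476% for KMS18 and 0.546% for the Mcl1 derivative). With CD86 shRNA IFI6 was 2-fold higher in MM.1s (1.11% of all genes) and KMS18 (0.767%). IFI27 in MM.1s was the only member 2-fold lower than Vec in any library, with Gapdh shRNA (0.608% of all genes), CD28 shRNA (1.61%) and CD86 shRNA (0.881%).

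**Figure D3:**
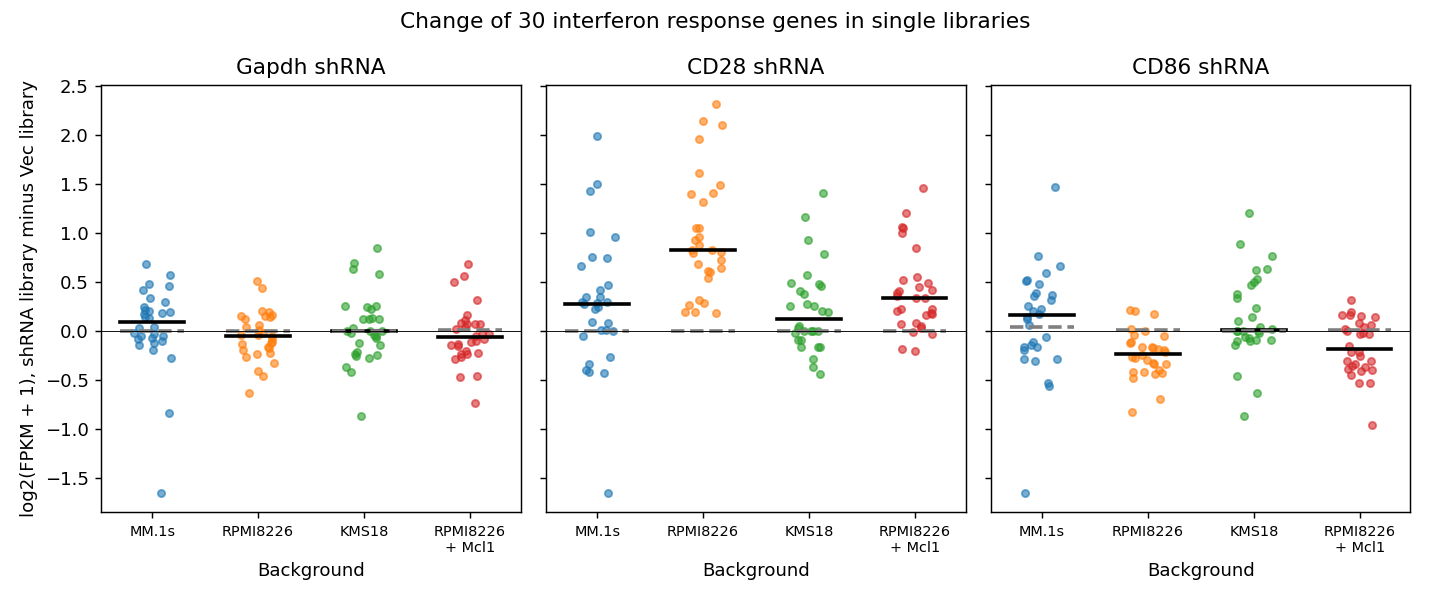
Difference of each shRNA library from the Vec library of the same background on the log2(FPKM + 1) scale, for the 30 members whose mean over the 16 libraries reached 1 FPKM. Points are genes, solid bars the median of the 30 members and dashed bars the median of all genes; with CD28 shRNA in RPMI8226 all 30 points lie above 0 and their median is 0.82.

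Among the IFIT proteins, which bind foreign RNA and block its translation, IFIT3 was 0.392 with Vec, 0.58 with Gapdh shRNA, 2.74 with CD28 shRNA and 1.09 with CD86 shRNA in MM.1s. In RPMI8226 the IFIT3 levels in the same order were 3.16, 2.02, 15.1 and 2.38. KMS18 had 0.338, 0, 0.842 and 0.266, and the Mcl1 line had 1.53, 1.34, 4.28 and 1.52 FPKM. The CD28 shRNA library was the highest in each of the 4 backgrounds, but the KMS18 values rest on 6, 0, 12 and 4 reads. IFIT1, which recognises RNA without the host's cap methylation, was 1 with Vec, 0.946 with Gapdh shRNA, 8.94 with CD28 shRNA and 0.492 with CD86 shRNA in RPMI8226. In MM.1s the IFIT1 levels were 0.891, 0.858, 2.81 and 0.31 and in the Mcl1 line 0.737, 0.487, 1.53 and 0.315 FPKM, again highest with CD28 shRNA, while KMS18 had no read. IFIT2 lies next to IFIT3 and was 0.558 with Vec and 3.16 with CD28 shRNA in RPMI8226, and IFIT5, next to IFIT1, was 2.38 with Vec and 4.29 with CD28 shRNA.

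IFI6 was 3.67 with Vec, 4.35 with Gapdh shRNA, 17.6 with CD28 shRNA and 11.9 with CD86 shRNA in MM.1s and, in the same order, 0.704, 2.06, 3.51 and 2.91 FPKM in KMS18. In both lines all 3 shRNA libraries were above Vec, with CD28 shRNA highest and CD86 shRNA second. The KMS18 values rest on 4, 10, 16 and 14 reads. For RPMI8226 and its Mcl1 derivative, given above, only the CD28 shRNA library was above Vec, and CD86 and Gapdh shRNA were below it. IFI27, a mitochondrial relative of IFI6, was 1.71 with Vec, 1.47 with Gapdh shRNA, 10.9 with CD28 shRNA and 1.34 with CD86 shRNA in RPMI8226. It was 2.15 with Vec and at 0 in the other libraries of MM.1s, which is the opposite order. IFI44 and IFI44L, neighbouring genes that encode antiviral proteins of the cytoplasm, were 0.442 with Vec and 7.55 with CD28 shRNA and 0.237 with Vec and 3.16 with CD28 shRNA in RPMI8226. IFI35, a partner of NMI, was not higher with CD28 shRNA in MM.1s (21.4 with Vec, 15.7 with CD28 shRNA) or KMS18 (18 and 13.7).

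Among the membrane restriction factors, BST2 was 273 with Vec, 302 with Gapdh shRNA, 378 with CD28 shRNA and 285 with CD86 shRNA in MM.1s. In RPMI8226 the BST2 levels in the same order were 329, 300.3, 399 and 302. KMS18 had 499, 590.1, 698 and 462, and the Mcl1 line had 271, 264, 316 and 232 FPKM. The CD28 shRNA library was the highest in all 4 backgrounds, by 1.38-fold, 1.21-fold, 1.40-fold and 1.17-fold over Vec in the order MM.1s, RPMI8226, KMS18 and the Mcl1 line. These ratios were small beside those of IFIT3, in the member with the highest level. IFITM2 and IFITM3, which guard endosomes against fusing viruses, had at most 14 and 6 reads in any library. They share much sequence with IFITM1, and reads of the 3 may be split between them.

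MX1 was 16.7 with Vec, 14.1 with Gapdh shRNA, 75 with CD28 shRNA and 12 with CD86 shRNA in RPMI8226, 1.12, 1.82, 5 and 1.95 in MM.1s and 10.8, 7.48, 22.6 and 7.17 in the Mcl1 line, highest with CD28 shRNA in each. In KMS18 the MX1 levels were 2.64, 2.94, 2.72 and 1.64 FPKM, with CD28 shRNA between Vec and Gapdh shRNA. MX2, its neighbour, was 0.673 with Vec and 4.13 with CD28 shRNA in RPMI8226. OAS2 was 3.93 with Vec, 3.78 with Gapdh shRNA, 14 with CD28 shRNA and 2.73 with CD86 shRNA in RPMI8226, and for the Mcl1 line its levels were 1.23, 1.07, 4.15 and 0.542. In MM.1s, where its Vec level was higher, OAS2 showed no such step (7.91, 7.41, 7.96 and 6.32), and in KMS18 it was 2.92, 3.56, 4.09 and 3.02 FPKM. OAS1, OAS3 and OASL in RPMI8226 were 9.98 with Vec and 21.7 with CD28 shRNA, 0.36 with Vec and 2.35 with CD28 shRNA and 2.54 with Vec and 8.89 with CD28 shRNA FPKM. EIF2AK2, the kinase PKR that halts translation, was 7.96 with Vec and 14.9 with CD28 shRNA in RPMI8226 but 9.21 with Vec and 6.55 with CD28 shRNA in MM.1s.

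**Figure D4:**
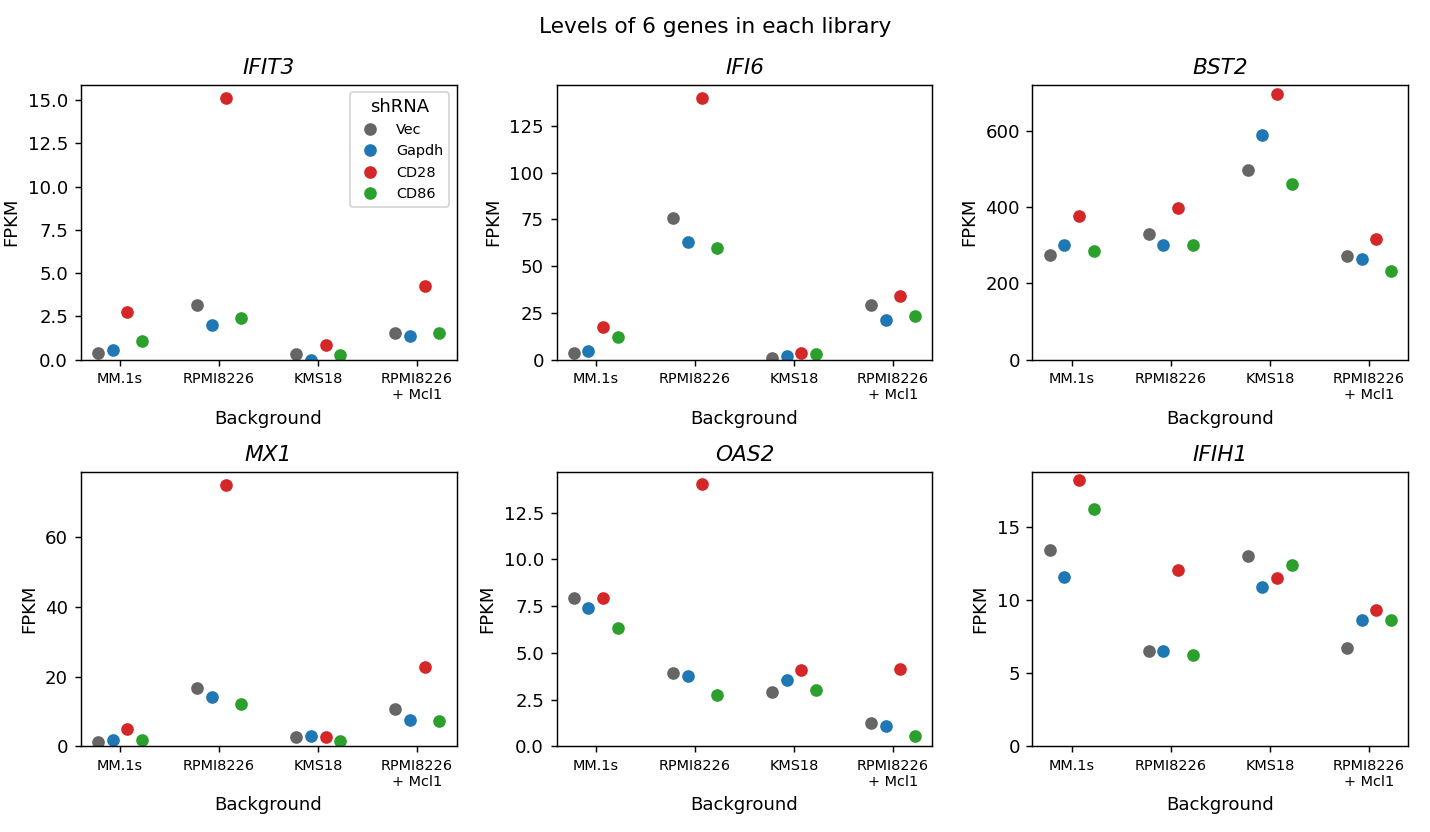
FPKM of 6 members in each of the 16 libraries, by background (x axis), with the shRNA as colour. IFIT3 and BST2 are highest with CD28 shRNA in all 4 backgrounds, MX1 in all except KMS18, and in RPMI8226 the CD28 shRNA library stands above the other 3 for all 6 genes.

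Other effectors in RPMI8226 showed the same order. TRIM22, an antiviral ubiquitin ligase, was 2.13 with Vec and 7.29 with CD28 shRNA, ISG20, an exonuclease, was 5.65 with Vec and 9.7 with CD28 shRNA, and SAMD9 and SAMD9L were 6.22 with Vec and 10.04 with CD28 shRNA and 3.32 with Vec and 7.38 with CD28 shRNA FPKM. RSAD2 was 0.0794 with Vec and 0.305 with CD28 shRNA. ISG20 was also highest with CD28 shRNA in the other backgrounds, with 17.7 for MM.1s, 10.1 for KMS18 and 10.6 for the Mcl1 line against Vec levels of 14.4, 3.93 and 5.45. SAMD9 went the other way in MM.1s (13.5 with Vec and 10.03 with CD28 shRNA) and KMS18 (18.9 with Vec and 13.7 with CD28 shRNA). PARP9 and PARP14, members of the ADP-ribosyltransferase family, were 1.92 with Vec and 6.26 with CD28 shRNA and 4.39 with Vec and 7.91 with CD28 shRNA in RPMI8226. SP110, a nuclear body protein, and XAF1 were 2.56 with Vec and 5.75 with CD28 shRNA and 1.21 with Vec and 4.94 with CD28 shRNA FPKM there.

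The genes of the ISG15 system did not all follow this order. ISG15 was 31.8 with Vec, 35.5 with Gapdh shRNA, 85.2 with CD28 shRNA and 30.6 with CD86 shRNA in RPMI8226, where the CD28 shRNA library stood apart from the other 3. In MM.1s, KMS18 and the Mcl1 line its CD28 shRNA levels were 7.99, 17 and 21.1 FPKM against 6.33, 14.8 and 18.3 with Vec. The CD28 shRNA level was the highest in the Mcl1 line only. KMS18 had more ISG15 with Gapdh shRNA (23.4) and CD86 shRNA (25.8), and MM.1s with CD86 shRNA (8.36). UBE2L6 was higher with CD28 shRNA than with Vec in all 4 backgrounds, by 1.24-fold to 1.45-fold. Its CD28 shRNA library was the highest in all except MM.1s, where CD86 shRNA gave 45.6 FPKM against 40.4 with CD28 shRNA. HERC5 was 3.1 with Vec and 6.09 with CD28 shRNA in RPMI8226 and 9.66 with Vec and 7.39 with CD28 shRNA in MM.1s, and its relative HERC6 was 0.207 with Vec and 0.696 with CD28 shRNA in RPMI8226. USP18, the protease that removes ISG15 and dampens the receptor, had at most 14 reads in any library and was 0.701 FPKM with CD28 shRNA in RPMI8226 and at 0 in the other 3 libraries of that line.

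Of the sensors, IFIH1 was 6.51 with Vec, 6.55 with Gapdh shRNA, 12.1 with CD28 shRNA and 6.28 with CD86 shRNA in RPMI8226 and 13.4, 11.6, 18.2 and 16.2 in MM.1s, in the same order. The Mcl1 line had 6.75, 8.65, 9.3 and 8.64. In KMS18 IFIH1 was 13.02, 10.9, 11.5 and 12.4, so CD28 shRNA was below Vec there. DDX58 (RIG-I), the other cytosolic sensor of viral RNA, was 0.64 with Vec and 2.39 with CD28 shRNA in RPMI8226 and 2.39 with Vec and 1.8 with CD28 shRNA in MM.1s, and DDX60 was 0.0288 with Vec and 0.515 with CD28 shRNA in RPMI8226. IFI16 was 95.2 with Vec and 109 with CD28 shRNA in RPMI8226 and differed less in the other backgrounds. Among the transcription factors, IRF7, which drives interferon alpha genes, was 6.32 with Vec, 9.19 with Gapdh shRNA, 11.3 with CD28 shRNA and 5.73 with CD86 shRNA in MM.1s. In the same order IRF7 was 6.84, 5.25, 12.8 and 3.4 for RPMI8226, 5.92, 4.78, 5.17 and 3.46 for KMS18 and 6.84, 5.62, 9.69 and 3.01 for the Mcl1 line. CD86 shRNA gave the lowest IRF7 level in every background, and CD28 shRNA the highest in all except KMS18. STAT2 and IRF1 were higher with CD28 shRNA than with Vec in all 4 backgrounds, by 1.07-fold to 1.85-fold and by 1.18-fold to 1.29-fold. The CD28 shRNA library was the highest for both genes in RPMI8226 and the Mcl1 line, and for STAT2 in KMS18. In MM.1s STAT2 was higher with Gapdh shRNA (38.04) than with CD28 shRNA (29.35). IRF1 there was 26.05 with Gapdh, 26.36 with CD28 and 26.03 with CD86 shRNA. In KMS18 IRF1 was higher with CD86 shRNA (16.25) than with CD28 shRNA (13.79).

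Read as an order within each background, the CD28 shRNA library was the highest of the 4 for all 30 filtered members in RPMI8226, against 28.1% of all genes. It was highest for 24 of 30 in the Mcl1 line (27.6% of all genes), 15 of 30 in MM.1s (27.6%) and 11 of 30 in KMS18 (28.3%). The filter can favour genes that are high in a single library, but over the unfiltered 43 members the same counts were 41, 32, 21 and 16. Members with the ISRE core had a median CD28 shRNA minus Vec difference of 0.85 in RPMI8226 and those without it 0.31 (20 and 15 genes). In the other backgrounds these medians lay closer, at 0.32 and 0.16 for MM.1s, 0.01 and 0 for KMS18 and 0.22 and 0.33 for the Mcl1 line, so that the order was reversed in the Mcl1 line. These are descriptions of single libraries with no test.

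Across the 3 parental lines, with a term for the line, IFI6, IFIT3 and BST2 rose with CD28 shRNA against Vec: 3 of 30 members tested, where 2.83% of all 11316 genes were called and 0.716% were called higher. The log2 changes were 1.42 ± 0.30 SE for IFI6 (adjusted p = 0.036), 1.28 ± 0.30 for IFIT3 (adjusted p = 0.0477) and 0.41 ± 0.08 for BST2 (adjusted p = 0.0249), each higher in 3 of 3 lines. In KMS18 IFI6 and IFIT3 had 4 and 6 reads with Vec and 16 and 12 with CD28 shRNA. No member fell, against 2.11% of all genes. IFI27, IFI44, IFIT1, OASL, PARP9 and TRIM22 passed the filter only through the CD28 shRNA library of RPMI8226, without which their means were 0.464 to 0.959 FPKM, so the filter partly sets the counts that follow. Estimates were above 0 for 28 of 30 members, and 14 had an unadjusted p under 0.05, all upward. Of all 11316 genes tested, 2240 had an unadjusted p under 0.05 in either direction. The median estimate was 0.41, against -0.003 for all genes. With no filter 42 members were tested, none was called, 15 had an unadjusted p under 0.05 and the median was 0.41. SAMD9 and IFI35 were the members with estimates below 0. Large estimates that missed the adjusted threshold were MX1 (1.21), IFI44 (1.15), IFIT1 (1.11), OASL (0.80), ISG20 (0.71), TRIM22 (0.69), OAS2 (0.66) and PARP9 (0.66).

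The 3 calls rested on all lines together. Without RPMI8226, IFI6 alone of 23 members tested was called (log2 change 1.70, adjusted p = 0.035) and the median estimate was 0.24. Without MM.1s none of 31 members was called, and without KMS18 none of 34 (limma), with 11 and 17 members at an unadjusted p under 0.05. Against Gapdh shRNA, which uses the same CD28 shRNA libraries, 1 of 30 members rose (2.2% of all genes were called, 0.486% higher), IFIT3, with a log2 change of 1.51 ± 0.30 SE (adjusted p = 0.0288). There 12 members had an unadjusted p under 0.05, all upward, and the median estimate was 0.36. For IFI27, IFI44, IFIT1, OASL, PARP9 and TRIM22 the filter favoured upward estimates here too, so it partly sets this count and this median. Of all 11316 genes, 1868 had an unadjusted p under 0.05 in either direction. Leaving out any line ended the IFIT3 call or, without RPMI8226, removed the gene from the test.

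**Figure D5:**
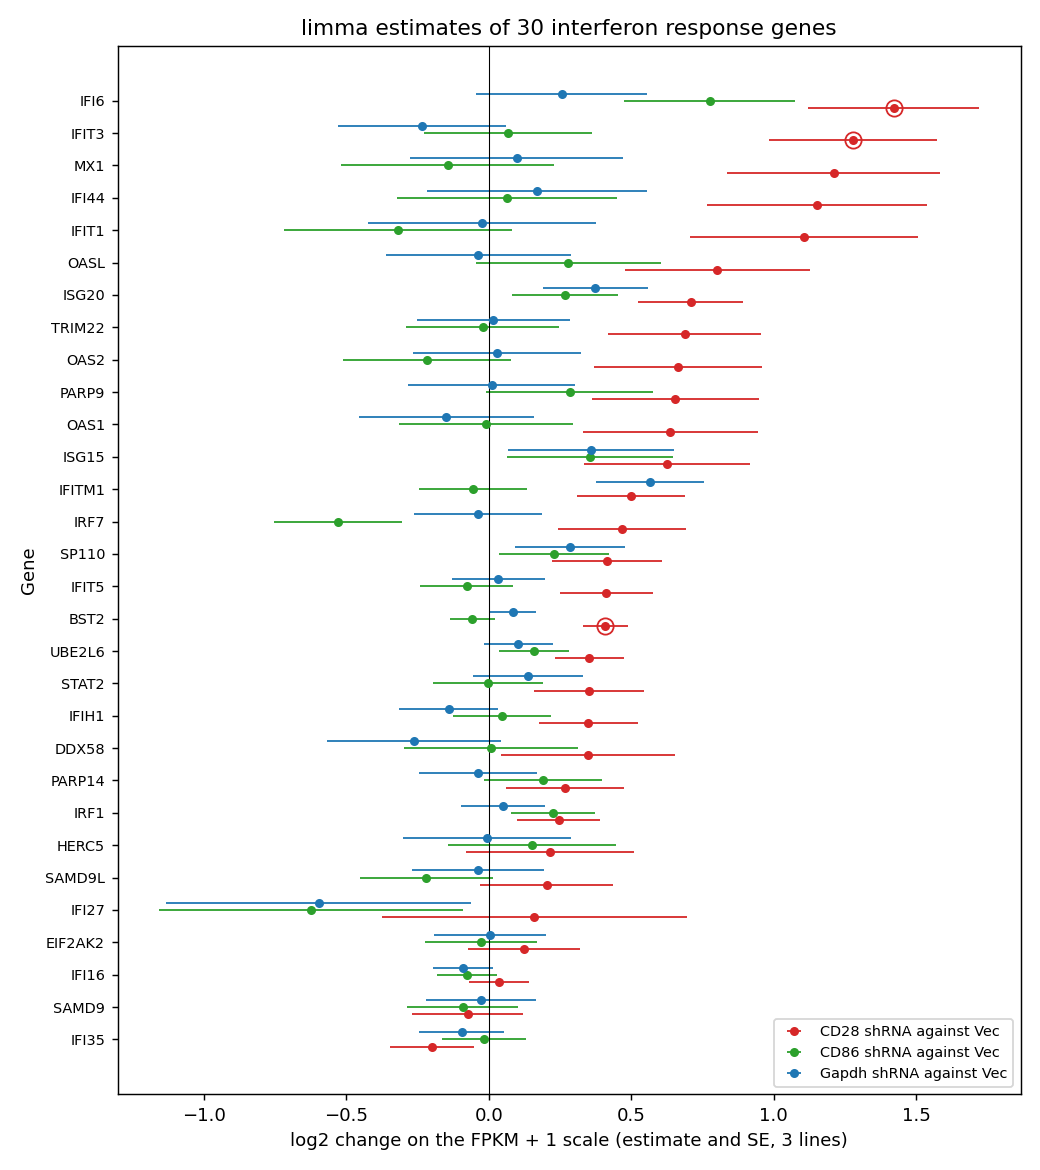
limma estimate and SE of the log2 change on the FPKM + 1 scale over MM.1s, RPMI8226 and KMS18 for the 30 members tested, for CD28, CD86 and Gapdh shRNA against Vec. Circled points (IFI6, IFIT3 and BST2 with CD28 shRNA) passed an adjusted p of 0.05; the CD28 shRNA estimates lie above 0 for 28 of 30 members and the others scatter around 0.

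Markers of other cells and depth moved with some of these libraries. The T cell markers in the table (CD3D, CD3E and CD2) summed to 0.707 FPKM with Vec and 4.26 with CD28 shRNA in MM.1s and to 2.38 and 7.37 in KMS18, nearly all from CD3E, with CD3D at 0 in every library. In RPMI8226, where the members differed most, that sum was 0 with Vec and 0.179 with CD28 shRNA, and in the Mcl1 line 0.159 and 0. Markers of plasmacytoid dendritic cells, which are major producers of interferon (CLEC4C, LILRA4, NRP1 and GZMB), summed to 0.477 and 1.55 FPKM in RPMI8226, with 1 of the 4, CLEC4C, at 0 in its CD28 shRNA library. Reads in genes were 4577443 in that library and 5900955 in the Vec library of RPMI8226. The part of these in the result was not tested.

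CD86 shRNA gave no comparable pattern. Against Vec no member was called among the 30 tested by limma (0.627% of all genes were called, 0.0619% higher and 0.566% lower), with IFI6 (0.78, adjusted p = 0.308) and IRF7 (-0.53, adjusted p = 0.351) at an unadjusted p under 0.05, and voom called none either, with 2 at an unadjusted p under 0.05. In limma 1453 of all 11316 genes had an unadjusted p under 0.05. The median estimate of the members was -0.006, against 0.02 for all genes. In RPMI8226 33 of 43 members were lower and 7 higher with CD86 shRNA than with Vec, and the CD86 shRNA library was the lowest of the 4 for 23 of the 30 filtered members (24.6% of all genes). The Mcl1 line had 25 lower and 15 higher. In MM.1s 25 were higher and 15 lower, and in KMS18 20 and 13. The median differences in these libraries were -0.23, -0.19, 0.16 and 0.007, in the order RPMI8226, Mcl1 line, MM.1s and KMS18, so the direction was not shared by the backgrounds. Of all genes, 52.1%, 51.1%, 54.4% and 47.1% were higher with CD86 shRNA in that order.

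Gapdh shRNA against Vec called no member in limma and no gene of the table (0%), with 1 member, IFITM1, at an unadjusted p under 0.05 and none called by voom. CD86 shRNA against Gapdh shRNA also called no member (1.13% of all genes), with IFITM1 (-0.62, adjusted p = 0.156) at an unadjusted p under 0.05 and none called by voom. Of all 11316 genes, 402 had an unadjusted p under 0.05 for Gapdh shRNA against Vec and 1835 for CD86 against Gapdh shRNA (limma). Higher with Gapdh shRNA than Vec were 24 of 43 members for MM.1s, 20 for RPMI8226, 14 for KMS18 and 13 for the Mcl1 line. Lower were 16, 21, 18 and 26 in that order. The remaining members were equal, 11 of them for KMS18. Of the 30 filtered members 17, 12, 13 and 12 were higher, against 46.3%, 49.1%, 45.3% and 50.5% of all genes, in that order.

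Compared directly, 5 of 30 members were lower with CD86 shRNA than with CD28 shRNA and none was higher, where 9.51% of all genes were called, 4.1% lower and 5.41% higher. They were IFIT1 (-1.43 ± 0.40 SE, adjusted p = 0.0485), MX1 (-1.35 ± 0.37, adjusted p = 0.0466), IFIT3 (-1.21 ± 0.30, adjusted p = 0.0299), IRF7 (-0.998 ± 0.22, adjusted p = 0.0229) and BST2 (-0.47 ± 0.08, adjusted p = 0.00688). IFIT3, MX1, IRF7 and BST2 were lower with CD86 than with CD28 shRNA in 3 of 3 lines, and IFIT1 in MM.1s and RPMI8226, with no read in KMS18. Estimates were below 0 for 29 of 30 members, the median was -0.43 against 0.03 for all genes, and 11 members had an unadjusted p under 0.05. IFI27, IFI44, IFIT1, OASL, PARP9 and TRIM22 passed the filter only through the CD28 shRNA library of RPMI8226. The filter favours estimates below 0 for them and partly sets these counts and the median. Of all 11316 genes, 3022 had an unadjusted p under 0.05 in either direction. This comparison shares its CD28 shRNA libraries with those against Vec and Gapdh shRNA, so it adds no independent measurement of them. Without RPMI8226 1 of 23 members was called (BST2, adjusted p = 0.0308) and the median was -0.03, without KMS18 2 of 34 (IFIT1 and MX1) and without MM.1s none of 31 (limma), with 11 at an unadjusted p under 0.05. IFIT1 passed the filter only through the CD28 shRNA library of RPMI8226 (mean 0.665 FPKM over the other 11 libraries), so it had to be lower with CD86 shRNA there, and with no filter 1 of 42 members was called. In the same comparison the T cell marker CD3E (-1.24, adjusted p = 0.0292) and the plasma cell markers CD38 (-1.04, adjusted p = 0.0212), MZB1 (-0.47, adjusted p = 0.00346) and SDC1 (-1.25, adjusted p = 0.0008) were lower with CD86 shRNA. MZB1 (-0.47, adjusted p = 0.0171) and SDC1 (-1.10, adjusted p = 0.0106) were also lower with CD86 shRNA than with Vec. The part of these in the result was not tested.

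Whether the Mcl1 line answered differently from the mean of the 3 parental lines was tested with an interaction term over all 16 libraries. No member was called by limma or voom for CD28 shRNA (0.00881% of all 11349 genes) or for CD86 shRNA (0%), and none had an unadjusted p under 0.05. Of all genes, 371 and 293 had an unadjusted p under 0.05 in limma, in that order. The estimated differences ranged from -1.21 to 0.82 for CD28 shRNA and from -1.09 to 0.70 for CD86 shRNA on the log2 scale. The Mcl1 line had 1 library per shRNA, so its spread was taken from the parental lines, and the test does not show that the responses were alike.

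The genes upstream of these members were examined as separate lists. None of 21 interferon genes passed the filter, and no interferon gene had more than 6 reads in any library. Of 6 receptor subunits, 8 JAK-STAT genes and 14 genes of nucleic acid sensing that were tested, none was called with CD28 shRNA or CD86 shRNA against Vec. The estimates for CD28 shRNA against Vec were 0.24 for IFNAR1 (adjusted p = 0.244) and -0.33 for IFNAR2 (adjusted p = 0.107). JAK1 had an estimate of 0.34 (adjusted p = 0.0908), TYK2 of 0.19 (adjusted p = 0.432), STAT2 of 0.35 (adjusted p = 0.346) and IRF3, which is activated by the sensors, of -0.21 (adjusted p = 0.314). With CD86 shRNA against Vec the estimates of these 6 genes lay between -0.28 and 0.28 and their adjusted p between 0.259 and 0.998.

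Of 30 further interferon-stimulated genes tested, 2 rose with CD28 shRNA against Vec (0.716% of all genes) and none fell (2.11%). ZNFX1, a helicase that senses viral RNA at mitochondria, had a log2 change of 0.80 (adjusted p = 0.0251) and GBP3, a guanylate-binding protein, of 0.71 (adjusted p = 0.0473). GBP3 was 9.43 with Vec and 21.9 with CD28 shRNA in MM.1s, 1.49 with Vec and 2.75 with CD28 shRNA in RPMI8226 and 4.89 with Vec and 6.77 with CD28 shRNA in KMS18. These calls were kept in 5 of 11 alternatives for ZNFX1 and 4 of 12 for GBP3, and leaving out any line ended both. None of the 30 was called with CD86 shRNA against Vec. CD86 shRNA against CD28 shRNA called 1 gene lower in each list, namely IFNGR2 (-0.59) among 6 receptors, PTPN6 (-0.45), a phosphatase that dampens JAK signalling, among 8 JAK-STAT genes, UNC93B1 (-0.91), the chaperone of endosomal Toll-like receptors, among 14 sensing genes, and TRIM5 (-0.75) among 30, where 4.1% of all genes were called lower. Of 12 alternatives 6 kept the call of IFNGR2, 6 that of PTPN6, 9 that of UNC93B1 and 7 that of TRIM5.

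Between lines these upstream genes differed in both directions, as did all genes, of which 33.2% were higher and 35.9% lower in RPMI8226 than in MM.1s. RPMI8226 had 5 of 6 receptor subunits lower than MM.1s and 1 higher, with IFNLR1 at -1.46, IFNAR1 at -0.88, IFNAR2 at -0.87 and IFNGR2 at -0.68. The endosomal sensors TLR9 (3.91) and TLR7 (1.85) were higher in RPMI8226 than in MM.1s, and TRAF3, an adaptor upstream of TBK1, was lower (-2.37). Among the further interferon-stimulated genes LY6E was higher (2.86) and GBP1 lower (-3.10). Thus 7 of the 30 further genes were higher and 15 lower in RPMI8226 than in MM.1s, although IFI6, MX1, ISG15 and IFITM1 were higher there.

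The authors' deposited table gives log2 changes and false discovery rates for 40 of the 43 members. For CD28 shRNA against Vec, 17 members in the authors' deposited table were higher at a false discovery rate under 0.05 and none was lower, against 2.68% of its 14975 genes called higher and 2.7% lower. They included IFI44 (log2 change 3.11), IFIT2 (2.56), IFIT1 (2.47), IFIT3 (2.16), OAS3 (2.01), MX2 (1.997), TRIM22 (1.96) and MX1 (1.53) in the authors' deposited table, as well as DDX60, USP18, BST2, OAS2, OASL, ISG20, IFI6, PARP9 and XAF1. For CD86 shRNA against Vec the authors' deposited table called no member, with 0.487% of all genes called higher and 1.55% lower. For CD86 shRNA against CD28 shRNA it called 14 members lower and none higher, against 5.9% of all genes lower and 4.41% higher. Part of the difference in counts lies in which genes were tested: DDX60, IFIT2, OAS3, MX2, USP18 and XAF1 are called in the authors' deposited table for CD28 shRNA but did not pass the filter used here. The test and scale also differed, as the authors' values come with likelihood ratio scores and log2 abundances, and the processing notes name edgeR. Its label reads as leaving out the Gapdh shRNA and Mcl1 libraries. The part of each difference was not tested.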

How the data were processed

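RNA was isolated with a column kit and sequenced from TruSeq mRNA libraries, per the labels' protocols. The authors deposited FPKM for each gene and library with its exon length, and log2 fold changes, log2 abundances, likelihood ratio scores, p-values and false discovery rates for 3 comparisons. Per the submitters' processing notes, the tools were edgeR 3.12.1, R 3.2.2, Picard and TopHat2 2.0.13. The notes name 3 builds, GRCh37, hg19 and mm9, but no roles for them. For strand and multimapping, no setting was found in these sources, and reads of overlapping genes and close paralogs cannot be told apart.

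FPKM was multiplied by exon length and divided by the value of 1 read in that library, found from its lowest values. The quotients were whole within 0.02 of a read for 100% of values below 1000 reads, and summed to 3914513 to 5900955 reads in genes per library. Counting error limits members with few reads. Values were compared as log2(FPKM + 1), a scale that understates changes of low genes, after a filter of a mean FPKM of at least 1. limma 3.58.1 in R 4.3.3 (eBayes with trend, two-sided, Benjamini-Hochberg over all genes tested) was used with shRNA and line terms on 12 libraries, on 8 libraries for the Mcl1 line against RPMI8226, and on 16 for interactions, and was tested on simulated data. The line term pairs libraries of the same cell line, whose deviations from the group means correlated at 0.87 to 0.95 in 18 pairs. Alternatives were the pseudocount, the filter, scaling by the median of ratios, voom on reads, other sets of libraries, no pairing term and leaving out each line or shRNA.

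The members and the gene lists were chosen with earlier results of these data known. Genes named with values were members past the threshold in a comparison (up to 8 in each direction between lines), the 4 highest and 4 lowest in the Vec libraries, 7 pathway genes (IFNAR1, IFNAR2, JAK1, TYK2, STAT2, IRF3 and IRF9; another gene of this rule is not reported here) and up to 4 genes per further list; other members are described by role, and those singled out there were chosen after their values were seen. The ISRE core was searched in RefSeq promoters (GRCh38.p14) matched by gene ID.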

Additional observations from a re-analysis of the deposited data

Results flagged for a closer look

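For each member whose mean reached 1 FPKM, the 4 libraries of a background were examined for a highest or lowest library whose gap to the nearest of the others exceeded Dixon's 95% critical value on the log2(FPKM + 1) scale. This was met in 14 of 117 groups, where chance flags about 1 in 20 groups, or 5.85. The CD28 shRNA library of RPMI8226 was the highest and stood apart in 7 of the 14, with ISG15 at 85.2 FPKM, IFIH1 at 12.1, IFI27 at 10.9, SAMD9 at 10, IFIT1 at 8.94, OASL at 8.9 and PARP9 at 6.26. IFI27 and IFIT1 reached a mean of 1 FPKM over the 16 libraries only through this library, so the filter favoured flags for it. The CD28 shRNA library of the Mcl1 line was the highest for UBE2L6, at 48.6 FPKM, and IFIT3, at 4.28. In KMS18 the CD28 shRNA library was the lowest for SAMD9, at 13.7 FPKM, and the Gapdh shRNA library the highest for IFITM1, at 0.494 (2 reads, with the other libraries at 0). In MM.1s the Vec library was the lowest for IRF1, at 22.4 FPKM, and the highest for IFI27, at 2.15 (8 reads), where the other 3 libraries were at 0. With the other 3 libraries at 0 any value above 0 is flagged, so the rule itself fixed these flags of IFITM1 and IFI27. The CD86 shRNA library of the Mcl1 line was the lowest for HERC5, at 1.45 FPKM.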

How the results depend on the processing

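For CD28 shRNA against Vec, 3 members called became 1 with a pseudocount of 5, 0 with no filter, 6 with voom on reads, 1 with only the libraries of the 2 shRNAs, 7 with all 16 libraries and 0 to 1 when a line was left out. For CD28 against Gapdh shRNA, 1 became 0, 0, 6, 0 and 4 under the same settings, 2 with a filter at 5 FPKM and 0 when any line was left out. For CD86 against CD28 shRNA, 5 became 2, 1, 10, 0 and 10, 3 with the filter at 5 FPKM, 3 with a pseudocount of 0.1 and 0 to 2 when a line was left out. Without the replicate block (the line term) these 3 comparisons called 0, 0 and 0, and the Mcl1 line against RPMI8226 called 6 in place of 17. With the filter at 5 FPKM, which left 18 members, RPMI8226 against MM.1s called 11 and KMS18 against RPMI8226 called 10. Over all genes, CD28 shRNA against Vec called 320, and 147 with no filter, 616 with voom, 0 without the block, 89 with only those libraries, 1036 with 16 libraries and 33 to 132 when a line was left out. Leaving out an shRNA gave 18 to 22 calls for RPMI8226 against MM.1s, 15 to 19 for KMS18 against MM.1s, 15 to 24 for KMS18 against RPMI8226 and 13 to 15 for the Mcl1 line. CD86 or Gapdh shRNA against Vec, CD86 against Gapdh shRNA and both interactions called 0 under every setting run. The estimates that changed sign, all uncalled and for CD86 shRNA against Vec, were STAT2 (0.00957 with a pseudocount of 0.1, 0.031 without MM.1s and 0.21 without RPMI8226), IFNAR1 (0.066 without MM.1s), IRF3 (0.052 without RPMI8226) and TYK2 (-0.051 without KMS18 and -0.00728 with 16 libraries). Apart from the smaller sets of genes or libraries, the cause of these differences was not tested. Depth limits the 13 members with a mean below 1 FPKM most.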
